A study of Mus musculus with 2 samples.

Results

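The genes described here are 39 markers of the somatic cells of the testis: Sertoli cells, Leydig cells, and the peritubular and stromal cells of the tubule wall. They were taken by symbol from a table of FPKM values (fragments per length of transcript, relative to all fragments mapped in the library) for 23234 genes, and 38 matched a row. Rhox5, the remaining member, matched none and is not analysed here. Of the 38 genes, 14 are Sertoli markers, 12 are Leydig markers and 12 are peritubular and stromal markers. The table comes from RNA-seq of round spermatids of the mouse, haploid cells between meiosis and the shaping of the sperm head. It holds 1 library of wild-type C57BL/6 mice and 1 library labelled Epc-dKO, of C57BL/6 mice deficient for both Epc1 and Epc2, whose products belong to the TIP60 (NuA4) histone acetyltransferase complex. The age of the mice, the deletion alleles and their drivers, the number of animals pooled and the way spermatids were isolated were not stated in the labels. With 1 library per genotype there is no replicate error, no test and no p-value, and every difference below is one between these libraries. A gene is called higher or lower only where its mean FPKM is 1 or more and the log2 ratio of FPKM + 1, with wild type as the denominator, is at least 1 in size, a 2-fold rule that understates changes of low genes.

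Sertoli cells sit inside the seminiferous tubule, hold the germ cells and form the blood-testis barrier. Leydig cells lie between the tubules and make testosterone from cholesterol, and also secrete the peptide hormone INSL3. Peritubular myoid cells are contractile cells that wrap the tubule and lay down its basement membrane together with Sertoli cells. None of these cells is a spermatid, so their markers were measured here in RNA labelled as that of another cell type. In bulk RNA, fewer cells of a type and less RNA per cell cannot be told apart.

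The markers were low in both libraries. Their FPKM summed to 88.8 in wild type, 0.0459% of all FPKM, and to 53.4 in the library labelled Epc-dKO, 0.0270%. The list of 23 round spermatid genes, measured in the same libraries, summed to 1779 and 2741. These sums are weighted to abundant genes, and the median FPKM ratio of the list, with wild type as the denominator, was 1.12. All 23 were expressed. By the mean of the 2 libraries the most abundant was the sperm lactate dehydrogenase gene Ldhc at 466 and 391, wild type first. Next was the protamine gene Prm2 at 82.8 and 675, though in wild type alone other genes of the list were above it. Epc1 had 11.4 and 13.6 in that order and Epc2 had 7.12 and 10.5, neither lower, so the genotype label is not borne out by these gene-level values, which may include exons outside a deleted part.

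The depth behind these values can be read in part from the table. Among 2539 genes with low values in both libraries (a summed FPKM under 0.2), 71.6% had FPKM ratios that matched a ratio of whole fragment numbers up to 20 within a relative tolerance of 1.2e-05. The commonest ratio, found in 317 genes, was 1.10, which is what 1 fragment is worth in wild type over the library labelled Epc-dKO. From transcript lengths the mapped totals come to about 36000000 and 40000000 fragments, and each marker's fragments were approximated in the same way. The 95% intervals given below for FPKM ratios (wild type as the denominator) are exact binomial (Clopper-Pearson) intervals on these approximate fragments. They cover counting error only, not differences between animals, and PCR copies are counted as fragments.

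**Figure D1:**
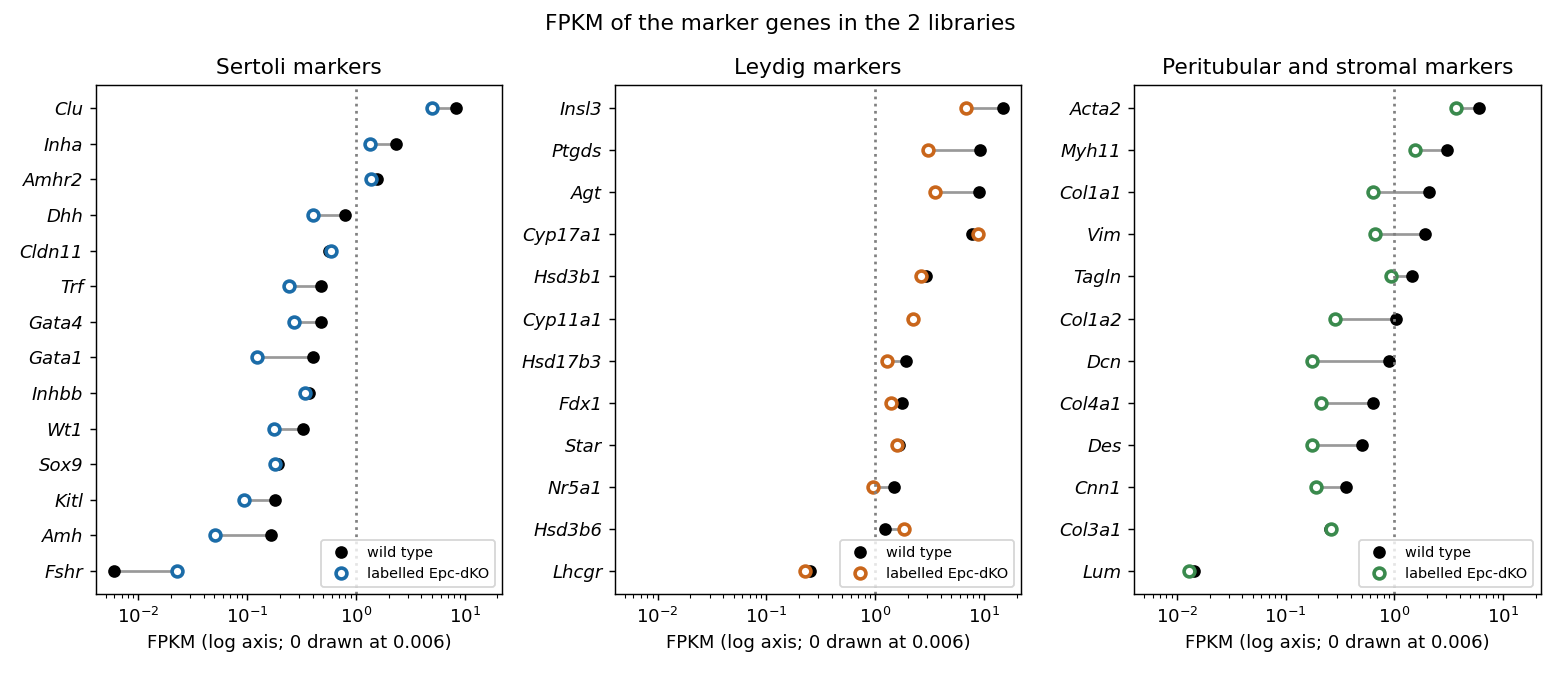
FPKM of each marker (x axis, log scale, 0 drawn at 0.006) in the wild-type library (filled) and the library labelled Epc-dKO (open), by list. The dotted line marks an FPKM of 1; 11 of 14 Sertoli, 1 of 12 Leydig and 7 of 12 peritubular and stromal markers had a mean below it.

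By mean FPKM, 19 of the 38 markers were expressed. Of these, 3 fell (Insl3, Ptgds and Agt, all in the Leydig list) and 0 rose. Over all 10438 expressed genes 1.88% were called lower and 2.75% higher. The median log2 ratio of the 19 was -0.35, beside -0.05 over all expressed genes. FPKM was lower in the library labelled Epc-dKO by any amount in 16 of the 19, where the share over all expressed genes was 54.4%. Of the 19 markers with a mean FPKM under 1, FPKM was lower in 16, beside 63.9% of genes with a mean FPKM of 0.1 to 1. Fshr and Lum lie under 0.1. Genes with equal fragments in both libraries, such as Lhcgr and Lum, count as lower, because 1 fragment is worth 1.10 times as much in wild type. The summed FPKM of the library labelled Epc-dKO was 0.634 of wild type for Sertoli markers, 0.632 for Leydig markers and 0.481 for peritubular and stromal markers. Without Acta2, its most abundant gene, the last value was 0.416.

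**Figure D2:**
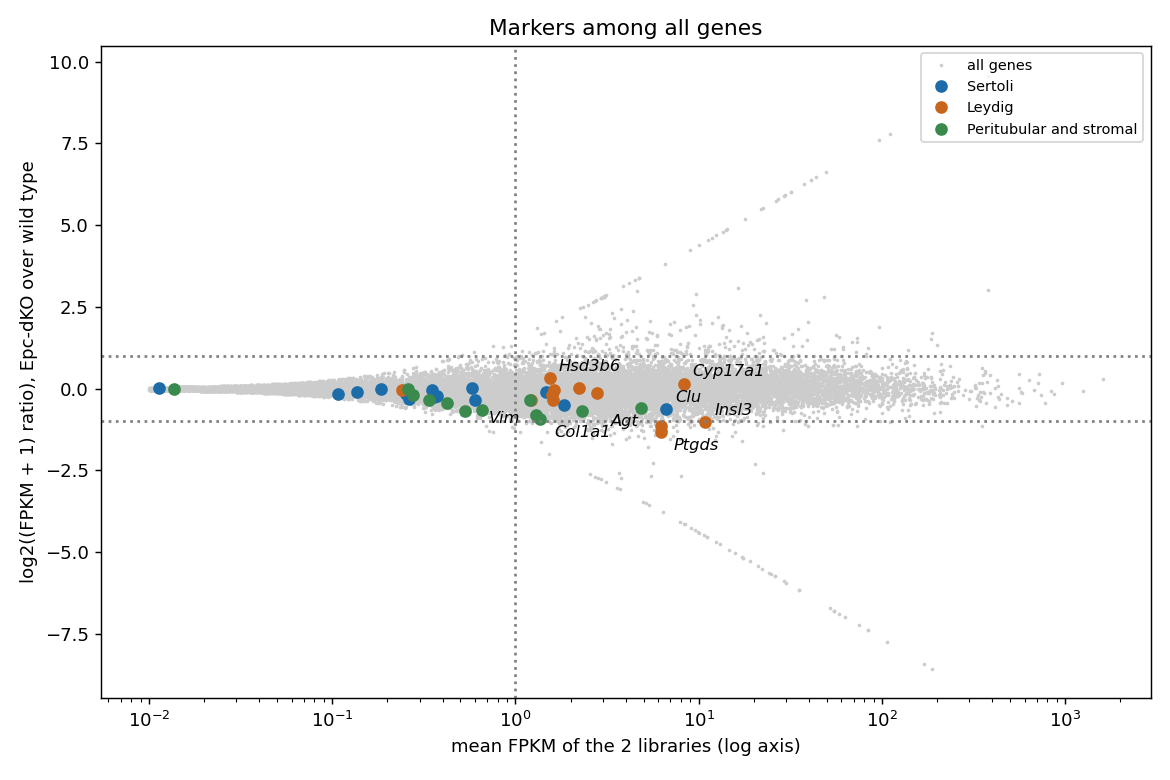
Log2 ratio on the (FPKM + 1) scale (y axis) against mean FPKM (x axis, log scale) for all genes with a mean of 0.01 or more (grey) and the markers (coloured by list). Dotted lines mark the 2-fold rule and the minimum mean FPKM; Insl3, Agt and Ptgds are the markers past both.

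On the (FPKM + 1) scale, 3 genes for secreted products in the Leydig list held the largest differences among expressed markers; on the FPKM ratio without a pseudocount Col1a1, given below, was lower than all 3 of them. Insl3, the relaxin-family hormone of Leydig cells that drives testis descent, had an FPKM of 14.9 in wild type and 6.79 in the library labelled Epc-dKO. It fell by 1.03 on the log2 scale. Insl3 was the most abundant of the 38 markers in wild type. Its FPKM ratio was 0.455 (95% counting interval 0.361 to 0.566). Insl3 shares exons with the overlapping gene Jak3 on the same strand, and 61.8% of its 50-base stretches also occur in a Jak3 transcript, so reads of these genes may have been split between them. Jak3, a cytokine receptor kinase gene, went the other way, with 0.512 in wild type and 1.03 in the library labelled Epc-dKO, an FPKM ratio of 2.01. On the (FPKM + 1) scale its log2 ratio was 0.42, and its mean FPKM was below the minimum of 1 for a call. Rescaling the libraries to a median ratio of 1 took Insl3 to -0.98, just inside the 2-fold rule.

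Ptgds, which encodes the lipocalin-type prostaglandin D synthase, fell from an FPKM of 9.29 to 3.09, a log2 ratio of -1.33 and an FPKM ratio of 0.332 (0.257 to 0.424). Agt, for angiotensinogen, the precursor of the angiotensin peptides, fell from 8.96 to 3.54, a log2 ratio of -1.13 and an FPKM ratio of 0.395 (0.339 to 0.461). The list of inhibin, activin and hedgehog signalling genes held 3 other genes of the angiotensin system, of which 2 rose. Over all expressed genes 2.75% were called higher. Ace, for the angiotensin-converting enzyme, which has a form of its own in male germ cells, rose from 49.1 to 119, and the receptor gene Agtr1a rose from 1.15 to 5.41. The receptor gene Agtr2, named after its values were seen, was listed at 0 in both libraries.

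The promoters of the 3 genes that fell, with that of Hsd3b1, an expressed steroid enzyme gene that stayed within 2-fold, are shown for comparison. They are the 250 bases before the start site in RefSeq (build GRCm38.p6, not the mm9 build of the FPKM values), printed 5′ to 3′ on the gene's strand. Capitals mark TATAAA, an exact form of the TATA box, and GGGCGG, the core of sites for SP1.
Insl3, chr8:71689002-71689251, + strand: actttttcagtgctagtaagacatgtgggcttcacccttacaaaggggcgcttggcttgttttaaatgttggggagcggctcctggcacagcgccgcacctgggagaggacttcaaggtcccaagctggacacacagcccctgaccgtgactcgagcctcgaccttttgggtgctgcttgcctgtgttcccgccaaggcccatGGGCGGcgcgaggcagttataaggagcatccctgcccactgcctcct
Ptgds, chr2:25469750-25469999, - strand: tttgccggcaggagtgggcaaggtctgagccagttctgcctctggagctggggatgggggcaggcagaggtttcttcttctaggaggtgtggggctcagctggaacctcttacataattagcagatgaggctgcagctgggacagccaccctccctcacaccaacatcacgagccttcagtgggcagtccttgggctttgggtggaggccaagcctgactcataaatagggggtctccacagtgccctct
Agt, chr8:124569707-124569956, - strand: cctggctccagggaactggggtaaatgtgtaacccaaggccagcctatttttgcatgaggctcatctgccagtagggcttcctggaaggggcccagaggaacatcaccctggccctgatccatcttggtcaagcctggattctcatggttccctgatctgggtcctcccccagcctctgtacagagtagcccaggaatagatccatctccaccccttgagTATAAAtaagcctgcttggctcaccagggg
Hsd3b1, chr3:98859795-98860044, - strand: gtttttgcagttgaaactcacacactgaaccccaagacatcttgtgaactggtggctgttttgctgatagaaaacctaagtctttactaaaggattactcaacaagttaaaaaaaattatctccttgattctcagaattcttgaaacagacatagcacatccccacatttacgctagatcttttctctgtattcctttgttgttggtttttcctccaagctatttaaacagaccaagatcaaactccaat
Agt holds TATAAA 30 bases before the start and Insl3 holds GGGCGG 47 bases before it, and the windows of Ptgds and Hsd3b1 hold neither exact string. Near matches to TATAAA, such as tataag in Insl3 and cataaa in Ptgds, were not counted. Among 32536 distinct promoter windows of this length, 12.3% hold TATAAA and 33.0% hold GGGCGG on either strand. AAGGTCA, the core of sites for the steroidogenic factor NR5A1, was searched on both strands too, and only as this exact string. Near matches were not counted, such as AAGGTCG, which the Insl3 window holds on the other strand. The exact string AAGGTCA occurs in 4.09% of all windows and, among the 24 markers with an entry, in 1, Amhr2. The CArG box, bound by serum response factor at smooth muscle genes, was searched only as the strict pattern CCWWWWWWGG (W for A or T). This pattern and TGACGTCA, the site of CREB and CREM, were in none of the 24, beside 1.48% and 1.56% of all windows. With shares this low, 24 windows are too few to show a lack of either. Of the contractile genes Acta2 and Cnn1 had an entry, while Myh11 and Tagln had none.

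The genes that make steroid hormone were at about the same level in both libraries. Star, which carries cholesterol into mitochondria, Cyp11a1, which cuts its side chain, the electron donor gene Fdx1, and Hsd3b1, Hsd3b6, Cyp17a1 and Hsd17b3, which carry out later steps to testosterone, summed to 19.5 and 19.8, wild type first, a ratio of 1.01. All 7 were expressed and 0 passed the 2-fold rule, where 1.88% of all expressed genes were called lower and 2.75% higher. The ratio of the sums was 0.982 to 1.05 over the rescalings tried and 0.937 without Cyp17a1, the most abundant, settings chosen after seeing the data. Cyp17a1 had an FPKM of 7.78 in wild type and 8.79 in the library labelled Epc-dKO, or a ratio of 1.13 (0.999 to 1.28). Cyp11a1 had 2.22 and 2.24, with an FPKM ratio of 1.01 (0.818 to 1.25), and Star had 1.66 and 1.60, with 0.963 (0.803 to 1.16). These intervals lie above those of Insl3, Ptgds and Agt.

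The remaining steroid genes lay on both sides. Hsd3b1 had an FPKM of 2.93 in wild type against 2.62 in the library labelled Epc-dKO, while its paralog Hsd3b6 had 1.24 and 1.83, an FPKM ratio of 1.47 (1.09 to 2.00). The 2 genes encode forms of the same enzyme. Of the 50-base stretches of Hsd3b6, 16.0% also occur in other genes, mostly Hsd3b2 and Hsd3b3, and 4.98% of those of Hsd3b1 do, so their separate values are uncertain. Hsd17b3, for the last step to testosterone, had 1.92 and 1.29, a ratio of 0.670 (0.467 to 0.956). Fdx1 had 1.77 and 1.41, a ratio of 0.800 (0.639 to 1.001).

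The regulators of the Leydig programme were low. Nr5a1, the steroidogenic factor shared by Leydig and Sertoli cells, had an FPKM of 1.49 in wild type and 0.953 in the library labelled Epc-dKO, or a ratio of 0.642 (0.493 to 0.822). Lhcgr, the receptor for luteinizing hormone, had 0.253 and 0.229, which is the same number of fragments in each library once 1 fragment's worth is taken into account. The other genes of steroid synthesis and cholesterol supply, a list of 33, held 13 expressed genes, none of them past 2-fold (0 higher and 0 lower), and their median log2 ratio was -0.17. Over all expressed genes 1.88% were called lower and 2.75% higher, and the median was -0.05. With shares this low, 0 calls among 13 genes says little of these genes. Sqle, of cholesterol synthesis, its most abundant member, had 40.0 in wild type and 40.4 in the library labelled Epc-dKO.

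Most Sertoli markers were near the bottom of the range. The transcription factor genes that define the cell, Sox9, Wt1, Gata4 and Gata1, had FPKM values of 0.192 to 0.474 in wild type and 0.122 to 0.268 in the library labelled Epc-dKO. Sox9, which directs Sertoli cell fate, had 0.192 and 0.180, a ratio of 28 to 29 fragments. Gata1 had 0.404 and 0.122, a ratio of 3 to 1 in fragments, with an FPKM ratio of 0.302 (0.117 to 0.694). Gata4 had 0.474 and 0.268, and Wt1 had 0.327 and 0.178, with FPKM ratios of 0.566 (0.360 to 0.879) and 0.543 (0.300 to 0.959). All 4 genes were below an FPKM of 1 in both libraries, and the Sox9 interval includes 1.

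Among hormones and ligands of Sertoli cells, Inha, for the alpha subunit of inhibin, was the only one with a mean FPKM of 1 or more. It had an FPKM of 2.34 in wild type and 1.34 in the library labelled Epc-dKO, or a ratio of 0.573 (0.414 to 0.774). Inhbb, for a beta subunit that pairs with it, had 0.366 and 0.338, a ratio of 0.922 (0.622 to 1.37). Dhh, the hedgehog ligand that acts on Leydig and peritubular cells, had 0.798 and 0.407. The gene overlaps Rhebl1, which shares 10.7% of its 50-base stretches. Kitl, the ligand of the KIT receptor on spermatogonia, had 0.180 and 0.0931. Amh, the anti-Müllerian hormone of immature Sertoli cells, had 0.166 and 0.0502 and rests on about 9 and 3 fragments.

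Receptors and junction proteins were low as well. Amhr2, the receptor for that hormone, had an FPKM of 1.56 in wild type and 1.39 in the library labelled Epc-dKO, or a ratio of 0.887 (0.665 to 1.18). Fshr, the receptor for follicle-stimulating hormone and a defining Sertoli marker, was listed at 0 in wild type and had 0.0227 in the library labelled Epc-dKO. Cldn11, the claudin of the blood-testis barrier, had 0.566 and 0.586, a ratio of 7 to 8 fragments. Of the secreted proteins, Clu, for clusterin, had 8.29 and 5.03, an FPKM ratio of 0.606 (0.525 to 0.698), and Trf, for transferrin, had 0.482 and 0.241. Clu made up the largest part of the summed Sertoli FPKM, which was 16.1 in wild type against 10.2 in the library labelled Epc-dKO. Trf shares 79.8% of its 50-base stretches with an overlapping gene model on the same strand.

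The 3 expressed Sertoli markers, Clu, Inha and Amhr2, had a median log2 ratio of -0.51, and 0 passed the 2-fold rule. Over all expressed genes the median was -0.05, and 1.88% were called lower and 2.75% higher. Over the 13 Sertoli markers above 0 in both libraries, the median FPKM ratio was 0.566. For genes with a mean FPKM of 0.1 to 1, where most of them lie, it was 0.792. Other Sertoli and tubule barrier genes, a list of 32, had 14 expressed members with a median log2 ratio of -0.37. Of these, Tjp1, a tight junction scaffold gene, rose from 9.45 to 20.1, and Sgpl1, for sphingosine-1-phosphate lyase, fell from 4.40 to 1.51. The list of inhibin, activin and hedgehog signalling genes had 20 expressed members, of which 2, Ace and Agtr1a, rose and 0 fell. The counts of both lists stand beside 2.75% called higher and 1.88% called lower over all expressed genes.

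**Figure D3:**
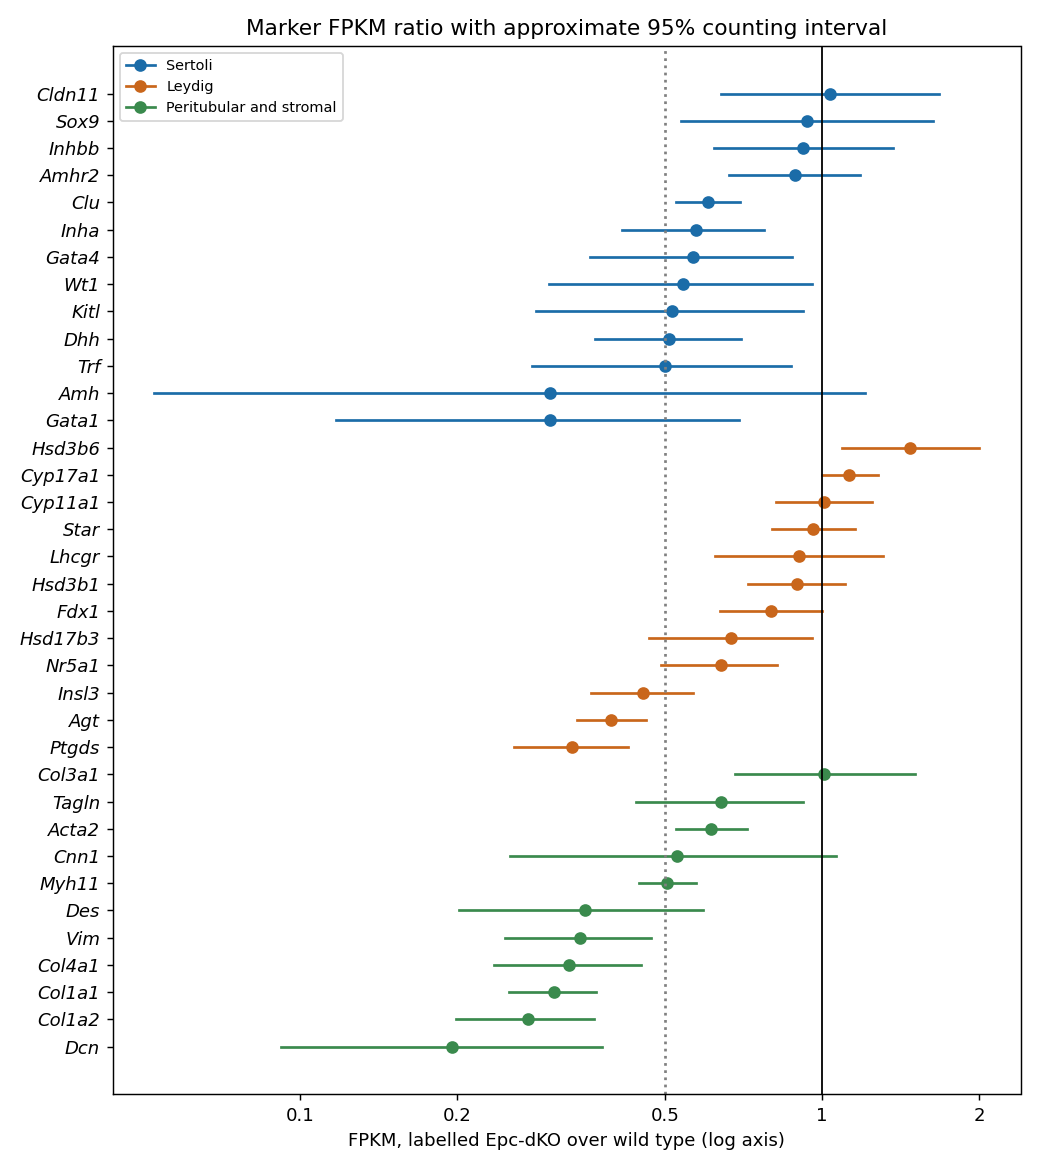
FPKM ratio of each marker, library labelled Epc-dKO over wild type (x axis, log scale), with approximate 95% counting intervals; markers with fewer than 10 fragments or a wild-type value of 0 are left out. The 7 steroid genes lie between 0.670 and 1.47, while Dcn, Col1a2, Col1a1, Col4a1 and Vim lie between 0.195 and 0.343, with intervals that end below 0.5.

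Peritubular and stromal markers had the lowest ratios of the 3 lists. Of 12 genes 5 were expressed, with a median log2 ratio of -0.67. FPKM was lower in the library labelled Epc-dKO in 11 of the 12, including Lum with about 1 fragment in each library. Over all genes this share was 54.4% at a mean FPKM of 1 or more and 63.9% at 0.1 to 1. On the FPKM ratio without a pseudocount, an alternative chosen after seeing the data, 6 of 11 with a mean FPKM of 0.1 to 12 (54.5%) were at or under 0.5. The same count was 2 of 13 Sertoli markers, 3 of 12 Leydig markers and 16% of all genes in this range.

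The collagen and proteoglycan genes of the extracellular matrix summed to an FPKM of 4.91 in wild type and 1.57 in the library labelled Epc-dKO, or a ratio of 0.320. Col1a1, a chain of type I collagen, had 2.08 and 0.636, an FPKM ratio of 0.306 (0.251 to 0.369). Col1a2, the other chain of that collagen, had 1.03 and 0.282, a ratio of 0.273 (0.199 to 0.367). Col4a1, of basement membrane collagen, had 0.640 and 0.210, a ratio of 0.328 (0.236 to 0.451). Both type I chains and Col4a1 were therefore lower by a similar factor.

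The other matrix genes were few in fragments or did not share this ratio. Dcn, for the proteoglycan decorin, had an FPKM of 0.893 in wild type and 0.174 in the library labelled Epc-dKO, or a ratio of 0.195 (0.0918 to 0.379), the lowest of the 37 markers above 0 in both libraries. Col3a1, of type III collagen, had 0.257 and 0.260, a ratio of 17 to 19 fragments and 1.01 (0.681 to 1.51) in FPKM. Lum, for lumican, had 0.0144 and 0.0131, about 1 fragment in each library, and says nothing of a difference.

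The contractile genes had ratios closer to 1 than the type I collagen genes. Acta2, smooth muscle actin, had an FPKM of 6.00 in wild type and 3.68 in the library labelled Epc-dKO, or a ratio of 0.613 (0.525 to 0.718). Myh11, smooth muscle myosin, had 3.07 and 1.56, a ratio of 0.506 (0.447 to 0.573). Tagln, for transgelin, had 1.46 and 0.937, and Cnn1, for calponin, had 0.363 and 0.192. Tagln overlaps the end of Pcsk7 on the other strand, which had 3.19 and 3.03, and whether strand was used in counting is not known.

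The 2 intermediate filament genes had ratios close to those of Col1a1 and Col4a1. Vim, for the vimentin of mesenchymal and Sertoli cells, had an FPKM of 1.92 in wild type and 0.659 in the library labelled Epc-dKO, or a ratio of 29 to 11 fragments and 0.343 (0.247 to 0.471) in FPKM. Des, for the desmin of muscle, had 0.499 and 0.176, a ratio of 18 to 7 fragments and 0.352 (0.202 to 0.593) in FPKM. Vim and Col1a1 stayed within the 2-fold rule with a pseudocount of 1, at log2 ratios of -0.82 and -0.91, and passed it at -1.06 and -1.18 with a pseudocount of 0.5.

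Other smooth muscle and matrix genes were a list of 35, chosen like the markers with earlier results of these data known. The list had 15 expressed members with a median log2 ratio of -0.69. Of these, 3 fell and 1 rose, where 1.88% and 2.75% of all expressed genes did. FPKM was lower in the library labelled Epc-dKO in 31 of the 35. Over all genes this share was 54.4% at a mean FPKM of 1 or more and 63.9% at 0.1 to 1. Fn1, for fibronectin, fell from 10.7 to 4.42, and the laminin genes Lamb2 and Lamb1 fell from 3.97 to 1.23 and from 2.46 to 0.684. Actg2, the enteric smooth muscle actin, rose from 15.3 to 36.2, opposite to Acta2. It had the highest FPKM of this list in both libraries. Which cells its RNA, or that of Tjp1 above, came from was not tested.

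**Figure D4:**
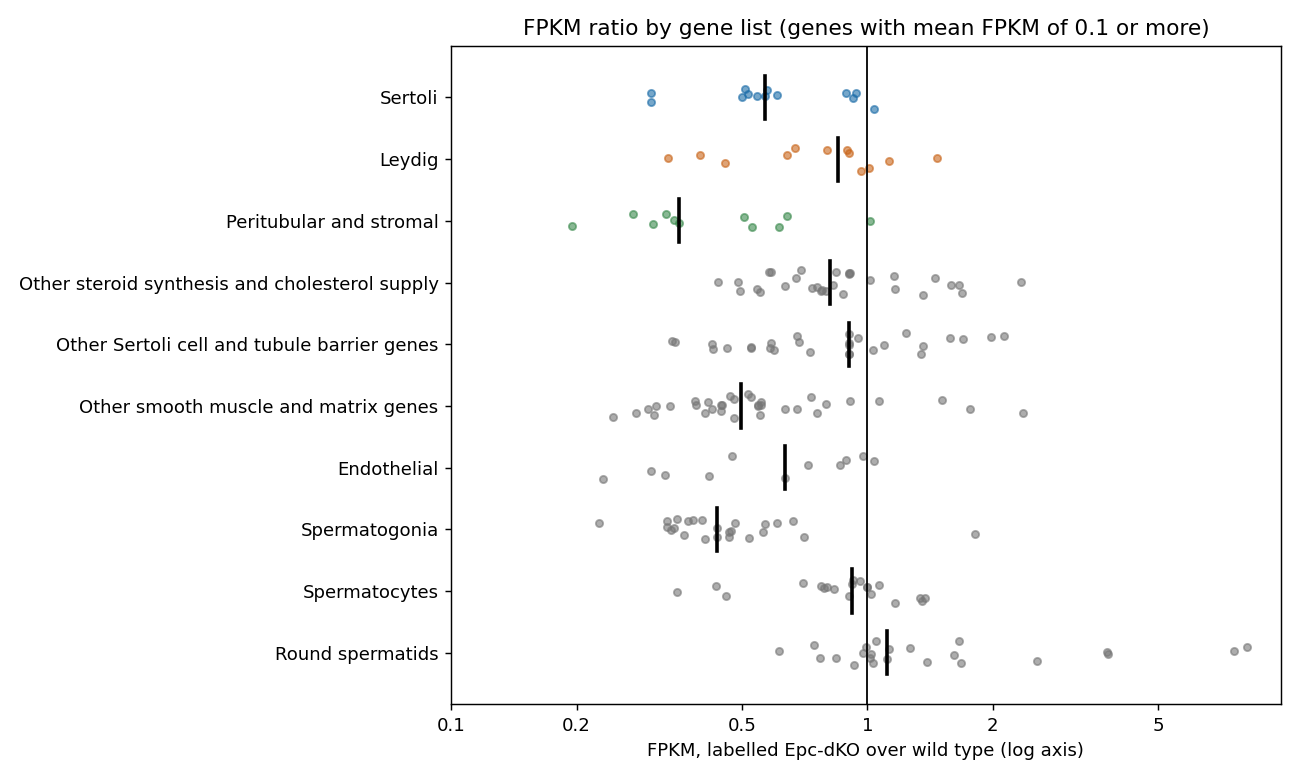
FPKM ratio, library labelled Epc-dKO over wild type (x axis, log scale), of each gene with a mean FPKM of 0.1 or more and above 0 in both libraries, by list; black bars are list medians. Medians were 0.566 for Sertoli, 0.848 for Leydig and 0.352 for peritubular and stromal markers, beside 0.436 for spermatogonia, 0.634 for endothelial genes and 1.12 for round spermatids.

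Markers of other cells moved in part with these lists. Of 24 spermatogonial genes FPKM was lower in 23. Over all genes this share was 54.4% at a mean FPKM of 1 or more and 63.9% at 0.1 to 1. The spermatogonial genes summed to 57.4 in wild type and 26.6 in the library labelled Epc-dKO, or a ratio of 0.464. Among them Dmrt1 fell from 7.49 to 2.47 and Crabp1 from 3.77 to 1.27. Endothelial genes, with 1 of 12 expressed, summed to 8.88 and 5.71, and FPKM was lower in 11 of the 12, beside the same shares over all genes. Equal fragments count as lower here too. Macrophage and blood genes had 0 of 17 expressed and ranged from 0 to 0.673 in wild type and from 0 to 1.20 in the library labelled Epc-dKO, with sums of 4.66 and 5.08. Epididymal genes had 1 of 14 expressed, Cst8 at 8.59 and 8.52, and 4 of the 14 were listed at 0 in both libraries. Which cells the Cst8 RNA came from was not tested. Spermatocyte genes summed to 1046 and 898, sums weighted to the most abundant genes. The median log2 ratio of the 18 expressed spermatocyte genes was -0.07, beside -0.05 over all expressed genes. The part that the share of other cells in each library had in the marker differences was not tested.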

How the data were processed

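RNA-seq was made from total RNA of round spermatids with a directional kit and 15 PCR cycles, per the labels' protocols. The authors deposited FPKM per gene, with 1 column per library; the submitters' processing notes name Cufflinks 2.2.1 and mm9. The aligner, annotation and strand setting were not stated there. Of 23235 rows, 1 held library codes and was left out; 0 symbols were duplicated. FPKM is scaled to each library's mapped total, so abundant transcripts can shift all others.

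Log2 ratios used a pseudocount of 1 and a minimum mean FPKM of 1. The members, the 10 other gene lists (242 entries, 241 matched) and the rule for named genes were chosen with earlier results of these data known. The rule names every member, Epc1, Epc2, and of each other list the 2 most abundant genes and those past 2-fold; 1 gene under this rule is not reported here. Jak3 and Pcsk7 were named for overlapping a member, and Rhebl1, Hsd3b2 and Hsd3b3 for sharing its sequence. Fragments per marker were approximated from FPKM, the longest RefSeq-linked GENCODE M21 transcript less 180 nt, and the mapped total that put the largest number of single-transcript genes with whole-number ratios within 2% of the line, which was 133 of 422. The fragment numbers are therefore approximate. The ratio search and the 2-fold rule were checked on simulated data. Alternatives were pseudocounts of 0.1 and 0.5 and none, other minimums, 3 rescalings and a 1.5-fold rule. Computations ran in Python 3.11.15 with pandas 2.3.3, NumPy 2.4.6, Matplotlib 3.10.9 and SciPy 1.17.1.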

Additional observations from a re-analysis of the deposited data

How the results depend on the processing

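The count of markers called lower was 3 of 19 in the main setting. With Col1a1 and Vim added it was 5 at a pseudocount of 0.1 or 0.5, or with none (the last chosen after seeing the data). It was 8 on the TPM scale and 7 under a 1.5-fold rule. Over all genes tested these settings called 6.25%, 3.49%, 6.84%, 6.96% and 10.8% lower. On the TPM scale values are larger, so more low genes pass the minimum and a pseudocount of 1 weighs less. Col1a1 (-1.478) and Vim (-1.335) passed 2-fold there. The count called lower was 2 with the libraries rescaled to a median ratio of 1, without Insl3 (-0.98). The count called higher was 0 in every setting run. The median log2 ratio of all expressed markers was -0.59 with a pseudocount of 0.1, -0.64 with none, -0.58 on the TPM scale, -0.24 with no minimum FPKM and -1.03 at a minimum mean FPKM of 5, which leaves 5 genes. For Sertoli markers it was -0.71 and -0.63 with pseudocounts of 0.1 and 0.5, -0.72 with none, -0.16 with no minimum and -0.31 without Clu. For Leydig markers it was -0.30 with a pseudocount of 0.1, -0.32 with none and -1.08 at a mean FPKM of 5 or more. For peritubular and stromal markers it was -0.94 and -0.80 with pseudocounts of 0.1 and 0.5, -0.98 with none, -0.51 with no minimum and -0.93 on the TPM scale. A smaller pseudocount enlarges ratios of low genes by construction, and the minimums change which genes are counted. At a mean FPKM of 5 or more the Sertoli and peritubular lists had too few genes for a median. Of 138 single-marker comparisons none reversed a call, 3 changed the sign of Cyp11a1 or Star, both near a ratio of 1, and 8 brought Col1a1 or Vim past 2-fold. No paired analysis was possible because there is a single library of each genotype. Approximate fragments limit statements on Amh, Fshr and Lum most.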
